A study of Mus musculus with 6 samples.

Results

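The *Nlrp* genes of the mouse oocyte that lie outside the subcortical maternal complex were followed between the non-polysomal (NP) and polysomal (P) fractions of oocytes from aged females (AF). They were chosen by name and are 8 genes, *Nlrp4a*, *Nlrp4b*, *Nlrp4c*, *Nlrp4e*, *Nlrp9a*, *Nlrp9b*, *Nlrp9c* and *Nlrp14*, out of 25899 gene symbols and out of 19 listed *Nlrp* symbols, among them the pseudogenes *Nlrp4d* and *Nlrp4g*. Each of the 6 libraries (3 NP and 3 P) came from 200 oocytes of CD1 mice aged 58 weeks, as the labels give them; the study's methods name the stock ICR and give the age in months, as a lower one. The females had received pregnant mare serum gonadotropin, and all oocytes had resumed meiosis, reached nuclear envelope breakdown (NEBD) and been held in cycloheximide, which arrests ribosomes on the mRNA, before lysis. The sucrose gradient of each sample was then divided into NP (free RNA and RNA on monosomes) and P (RNA on polysomes), so NP and P libraries with the same number were taken as parts of one gradient. Oocytes of young females were not analysed here, and how many females gave each sample is not given in the sources used here, so the p-values measure only the spread between these samples.

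NLRP proteins carry an N-terminal pyrin domain, a central nucleotide-binding NACHT domain and C-terminal leucine-rich repeats. Some family members of immune cells assemble inflammasomes, the platforms that activate inflammatory caspases, whereas a large group arose by gene duplication and is made mainly in germ cells. NLRP5 (also called MATER) and its partners form the subcortical maternal complex, or cytoplasmic lattice, of the egg and early embryo. The *Nlrp4* genes of the mouse are copies that correspond to one human gene, as are the *Nlrp9* genes. *Nlrp14* is needed in the oocyte for female fertility, and NLRP14 protein has been linked to UHRF1, a regulator of DNA methylation. For most *Nlrp4* and *Nlrp9* copies the role in the oocyte is little known.

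The copies are close enough in sequence that short reads cannot always be given to one of them, which bears on every value of *Nlrp4e* and *Nlrp4c* below. In GENCODE M21 (GRCm38), 36.9% of the 50-base words of the *Nlrp4e* transcript occurred in the transcript of at least 1 other gene. The share was 11.9% for *Nlrp4c*, 6.54% for *Nlrp9a*, 6.22% for *Nlrp9b*, 4.99% for *Nlrp9c* and 2.95% for *Nlrp4a*. No such word of *Nlrp4b* or *Nlrp14* was shared. Most of the words that *Nlrp4e* shared lay in 5 unprocessed pseudogenes of the *Nlrp4* type, of which Gm16443 held 31.0% of the *Nlrp4e* words. These pseudogenes were not analysed here. The proteins predicted from these transcripts were 89.2% identical between NLRP4C and NLRP4E, 77.6% between NLRP4A and NLRP4C, and 78.2% between NLRP9A and NLRP9C. NLRP14 was 32.1% to 35.3% identical to the other members, about as far from the NLRP4 group as from the NLRP9 group.

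**Figure D1:**
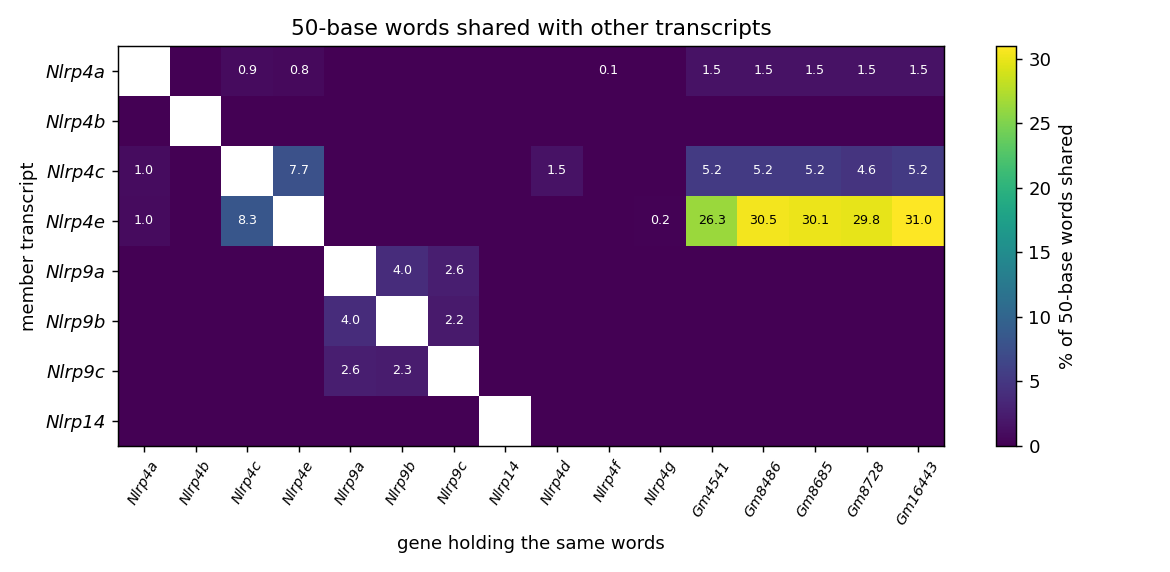
Percent of the 50-base words of each member transcript (rows) that also occur in the transcript of another gene (columns), from GENCODE M21; white cells are a gene against itself. The row of *Nlrp4e* reaches 31.0% in the column of Gm16443, and the rows of *Nlrp4b* and *Nlrp14* are at 0 throughout.

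Identical stretches of 3 pairs show where such reads would fall, all of them in coding exons on the forward strand of chromosome 7. Capitals mark the identical run and lower case the 10 transcript bases on each side of it. The run of *Nlrp4e* and Gm16443 was 218 bases long (chr7:23320369-23320586, exon 2 of 9). The run of *Nlrp4c* and *Nlrp4e* was 120 bases long (given in *Nlrp4c*, chr7:6060715-6060834, exon 2 of 10). The run of *Nlrp9a* and *Nlrp9b* was 129 bases long (given in *Nlrp9a*, chr7:26557547-26557675, exon 3 of 10). A read lying wholly inside capitals fits both named genes equally, and it can fit further ones. The 218 bases of *Nlrp4e* are also identical in Gm4541, Gm8685 and Gm8728. The run of *Nlrp4c* and *Nlrp4e* lies inside 129 bases that *Nlrp4c* shares with Gm16443, Gm4541, Gm8486, Gm8685 and Gm8728.
Nlrp4e with Gm16443: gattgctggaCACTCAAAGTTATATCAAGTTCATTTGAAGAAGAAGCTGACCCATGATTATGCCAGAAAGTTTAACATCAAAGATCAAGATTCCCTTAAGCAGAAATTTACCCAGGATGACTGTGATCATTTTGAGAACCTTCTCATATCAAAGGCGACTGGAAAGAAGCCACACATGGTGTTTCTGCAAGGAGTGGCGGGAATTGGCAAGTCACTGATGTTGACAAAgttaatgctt
Nlrp4c with Nlrp4e: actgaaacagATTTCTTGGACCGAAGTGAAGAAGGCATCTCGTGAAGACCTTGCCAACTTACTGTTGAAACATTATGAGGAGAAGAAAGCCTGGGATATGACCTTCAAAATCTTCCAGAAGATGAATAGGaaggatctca
Nlrp9a with Nlrp9b: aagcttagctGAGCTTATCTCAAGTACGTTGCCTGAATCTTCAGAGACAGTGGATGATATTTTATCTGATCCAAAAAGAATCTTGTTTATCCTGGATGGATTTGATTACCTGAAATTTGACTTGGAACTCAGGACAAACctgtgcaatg

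The 3′ ends of the *Nlrp9* copies were also nearly the same. The polyadenylation signal AATAAA or ATTAAA (searched on the transcript strand in the last 50 bases) was found in 6 of the 8 members, not in *Nlrp4a* or *Nlrp14*, and in 73.4% of 18234 genes with a 3′ untranslated region. A cytoplasmic polyadenylation element, TTTTAT or TTTTAAT, which in maturing oocytes takes part in the timing of translation, was found in the last 100 bases of *Nlrp4a* and *Nlrp4c* and in 16.9% of those genes. The 30-base sites of the *Nlrp9* copies are printed with AATAAA in capitals because they show how little these transcript ends differ, with 28 or 29 of 30 bases identical in each pair. They lie at chr7:26574112-26574141 (forward strand), chr7:20062904-20062933 (forward strand) and chr7:26364698-26364727 (reverse strand).
Nlrp9a: acaagcacattcAATAAAcactaagcatgt
Nlrp9b: acaagcacatttAATAAAcactaagcgtgt
Nlrp9c: acaagcacattaAATAAAcactaagcatgt

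The unit is FPKM, fragments per kilobase of exon scaled to the mapped reads of the library, so a level per transcript length. A log2 ratio below is the mean of log2(FPKM + 1) in P minus that in NP, and a gene was called when limma gave an adjusted p under 0.1. The libraries differed widely in depth, and the summed FPKM of the listed genes was lower in P. The depth recovered from the steps between low FPKM values was between 1236850 and 18081110 in NP and between 163718 and 1548037 in P, a 110-fold span, with 56.4% to 63.0% of low values whole within 0.02 reads. The listed genes summed to between 597261 and 633110 FPKM in NP and between 246182 and 393876 FPKM in P, and over the 10578 genes tested the ratio of P to NP had a median of -1.03 on the log2 scale. Of 12 oocyte markers 10 were above 0 in all libraries, with a summed level between 10825 and 13426 FPKM in NP and between 4695 and 13213 FPKM in P. Of these 12 only *Nobox*, a transcription factor of the oocyte, was called, lower in P (log2 ratio -3.13, SE 0.76, limma adjusted p = 0.0586), and the call held in 4 of 18 alternatives, with ratios between -3.65 and -2.003 and adjusted p between 0.0250 and 0.651. Granulosa cell markers summed to between 7.85 and 104 FPKM in NP and at most 16.5 FPKM in P, with 7 of 10 at 0 throughout including *Foxl2* and *Fshr*. Nearly all of this sum was *Cyp19a1*, the aromatase gene, at 7.15, 22.5 and 104 FPKM in NP and 15.4, 0 and 0 FPKM in P. Blood markers summed to at most 16.5 FPKM, mainly *Csf1r* (12.9, 16.5 and 0.388 FPKM in NP and 2.50, 8.07 and 0 FPKM in P), and stroma markers to at most 8.86 FPKM, mainly *Star* (8.80 FPKM in NP2 and 0 elsewhere), with *Ptprc* and *Col1a1* at 0. The part of these other cells in the member values was not tested.

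*Nlrp14* had the highest mean level of the 8 members in both fractions. In the NP libraries 1, 2 and 3 it was at 458, 369 and 252 FPKM. In the P libraries it was at 780.1, 208 and 850.4 FPKM. The P values thus lay on both sides of the NP values, with P2 below every NP library and P1 and P3 above every one. The log2 ratio of P over NP was 0.56 with an SE of 0.66, and limma gave an adjusted p of 0.644. Within pairs, P was 1.70, 0.563 and 3.38 times NP. When the libraries were rescaled to each other in 3 ways (by the median of ratios, to equal quantiles, to a common FPKM sum), the ratio was between 1.44 and 1.56 (adjusted p between 0.618 and 0.650), and without both libraries numbered 3 it was -0.03. It was 0.33 without NP replicate 3, 0.27 without P replicate 1, 1.22 without P replicate 2 and 0.21 without P replicate 3. In each library *Nlrp14* stood between percentiles 95.2 and 99.1 of the genes above 0.

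*Nlrp4b* was the other abundant member. Its NP levels were close together, at 392, 325 and 328 FPKM. Its P levels were 549.9, 109 and 123 FPKM, so P1 was above and P2 and P3 were below all NP libraries. The log2 ratio was -0.83 with an SE of 0.72 (limma, adjusted p = 0.537), and its sign turned under each rescaling (0.10 to 0.17). It was -1.58 without P replicate 1, -0.41 without P replicate 2 and -0.50 without P replicate 3. The spread between P libraries was 5.05-fold, against 1.20-fold between NP libraries. *Nlrp4b* encodes the shortest protein of the members, with 863 predicted residues against 978 to 1004 in the others, and shares no 50-base word with another gene.

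The remaining *Nlrp4* copies had lower mean levels in both fractions, although *Nlrp4a* (128 FPKM) was above *Nlrp4b* (123 FPKM) in P3. *Nlrp4a* was at 114, 194 and 40.4 FPKM in NP and at 39.8, 93.9 and 128 FPKM in P. The fractions overlapped, and replicate 3 was the lowest library in NP and the highest in P. Its log2 ratio was -0.30 with an SE of 0.87 (limma, adjusted p = 0.875), and the sign turned to 0.63 to 0.69 after rescaling, to 0.20 without NP replicate 2 and to 0.18 without P replicate 1.

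*Nlrp4e*, whose knockdown has been reported to arrest early mouse embryos, was at 67.4, 119 and 69.7 FPKM in NP and at 27.7, 67.2 and 6.24 FPKM in P. It was the only member whose P libraries all lay below its NP libraries, although the highest P value (67.2) and the lowest NP value (67.4) were almost equal. The same held for 23.2% of all genes tested. P was also below NP in 3 of 3 pairs, at 0.411, 0.567 and 0.0895 times NP, as it was for 38.6% of genes and for *Nlrp9b* among the members. The log2 ratio was -1.78 with an SE of 0.99 and was not called (limma, adjusted p = 0.380). A two-sided exact permutation test of the 3 against 3 libraries, which ignores the pairs, gave p = 0.1, the smallest p it can give. Complete separation of the libraries fixes this p, so it adds nothing to the order of the values. The ratio was negative under the 13 alternatives that can change it, from -2.53 (without P replicate 2) to -0.52 (quantiles), and it was -0.91 without P replicate 3. The P1 and P3 values stand for about 15 and 33 reads. How much of each value came from reads of the pseudogenes or of *Nlrp4c* was not tested.

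*Nlrp4c* was the only member listed at 0 anywhere. It was listed at 1.04, 36.9 and 0 FPKM in NP and at 14.1, 8.09 and 0 FPKM in P. Both libraries numbered 3 were at 0, where 3 reads would be worth 0.0617 FPKM in NP3 and 0.483 FPKM in P3. The value of NP1 stands for about 5 reads and that of P1 for about 9, and P1 was 13.6 times NP1 on these few reads. The log2 ratio was 0.28 with an SE of 1.45 (limma, adjusted p = 0.934), and its sign depended on single libraries. It was -0.26 without NP replicate 1, -0.77 without NP replicate 3, -0.50 without P replicate 1, -0.13 without P replicate 2 and 1.85 at most, and it turned to -0.0061 with a pseudocount of 5.

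The *Nlrp9* copies lay between 1.86 and 51.4 FPKM in all 6 libraries. NLRP9B is known from the gut epithelium, where it takes part in the response to viral double-stranded RNA together with the helicase DHX9. *Nlrp9b* was at 24.1, 47.7 and 22.6 FPKM in NP and at 8.77, 37.0 and 10.6 FPKM in P. P was lower in 3 of 3 pairs, but P2 was above NP1 and NP3, so the fractions overlapped. The P1 value stands for about 5 reads, and 3 reads there would be worth 4.92 FPKM. The log2 ratio was -0.92 with an SE of 1.05 (limma, adjusted p = 0.636), near the median of all genes, and became 0.04 or 0.26 under median-of-ratios and quantile rescaling. It was -1.53 without P replicate 2, -0.55 without P replicate 1 and -0.58 without NP replicate 2.

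*Nlrp9c* was at 41.4, 26.3 and 17.0 FPKM in NP and at 51.4, 27.0 and 27.6 FPKM in P. P was above NP in 3 of 3 pairs, at 1.24, 1.03 and 1.62 times NP, a direction shared by 2.09% of the genes tested. That share was counted without rescaling, on a scale where the median log2 ratio of all genes tested was -1.03. It was not counted after rescaling, and pair 2 was almost a tie (27.0 FPKM in P against 26.3 FPKM in NP). The fractions still overlapped, and the log2 ratio was 0.34 with an SE of 0.98 (limma, adjusted p = 0.874). A two-sided exact permutation test, which ignores the pairs, gave p = 0.4. The ratio was above 0 under the 13 alternatives that can change it, from 0.03 (without NP replicate 3) to 1.38, and it was 0.04 without P replicate 1.

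*Nlrp9a* was at 50.4, 25.3 and 10.9 FPKM in NP and at 28.1, 36.3 and 1.86 FPKM in P. The P3 value stands for about 10 reads. The log2 ratio was -0.79 with an SE of 1.17 (limma, adjusted p = 0.730). Its sign turned without P replicate 3 (0.38) and under each rescaling (0.082 to 0.50).

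**Figure D2:**
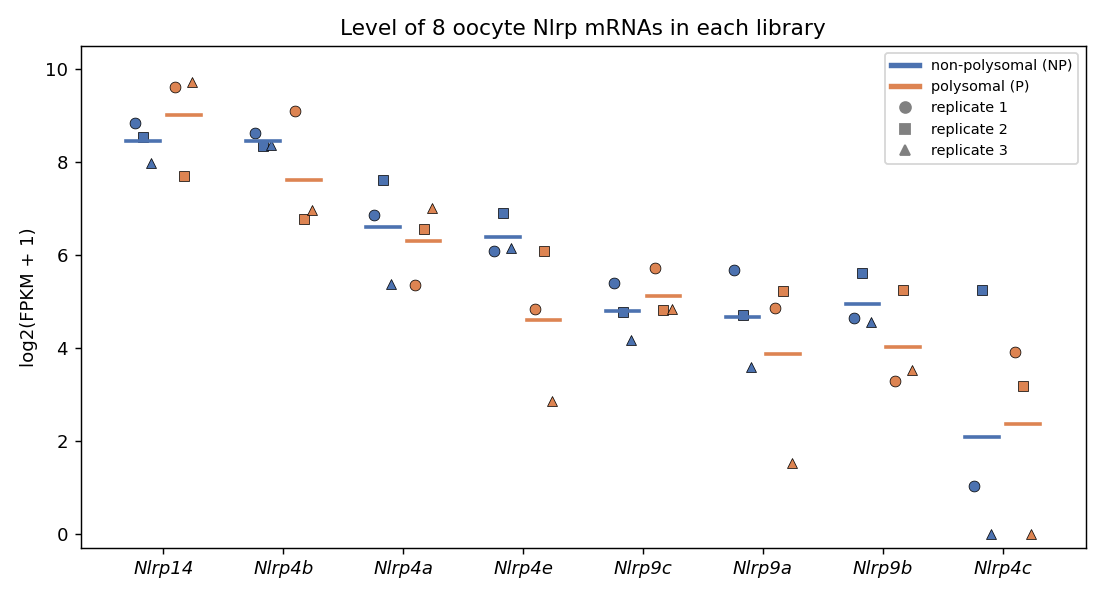
Level of each member as log2(FPKM + 1) in the 3 NP and 3 P libraries; points are libraries, shapes are replicate numbers and bars are the mean of 3. The points of the fractions interleave in 7 of 8 genes, and in *Nlrp4e* the highest P library (67.2 FPKM) just misses the lowest NP library (67.4 FPKM).

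Over the 8 members, none passed the adjusted p of 0.1, and none had an unadjusted p under 0.05. With other settings 1 member had one, *Nlrp14* under each of the 3 rescalings, *Nlrp4b* without P replicate 1 and *Nlrp4e* without P replicate 2, with limma adjusted p of 0.618 to 0.650, 0.399 and 0.318. Among all genes limma called 192 of 10578 (1.82%), 2 higher and 190 lower in P, and 1669 had an unadjusted p under 0.05. This split depended on the scaling, with 2 higher and 1 lower by the median of ratios, 2 and 2 with equal quantiles and 2 and 5 with a common FPKM sum. The members' median log2 ratio was -0.55, against -1.03 over all genes tested. Of the 8 members 7 lay above the all-gene median, the exception being *Nlrp4e*. With a pseudocount of 5 these medians were -0.40 and -0.52, with 5 of 8 members above. Without the filter on low values they were -0.55 and -0.59, with 4 of 8 above. In the main setting 3 of 3 *Nlrp* genes of the subcortical maternal complex and 8 of 12 oocyte markers also lay above the all-gene median. The ratio was below 0 for 5 members and above 0 for 3, *Nlrp4c*, *Nlrp9c* and *Nlrp14*, and each of the 5 but *Nlrp4e* turned above 0 under at least 1 rescaling. The members' median became 0.36 to 0.58 under the rescalings, which put the median of all genes between -0.43 and 0.00. In these bulk libraries, fewer oocytes holding an mRNA and less of it per oocyte cannot be told apart.

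**Figure D3:**
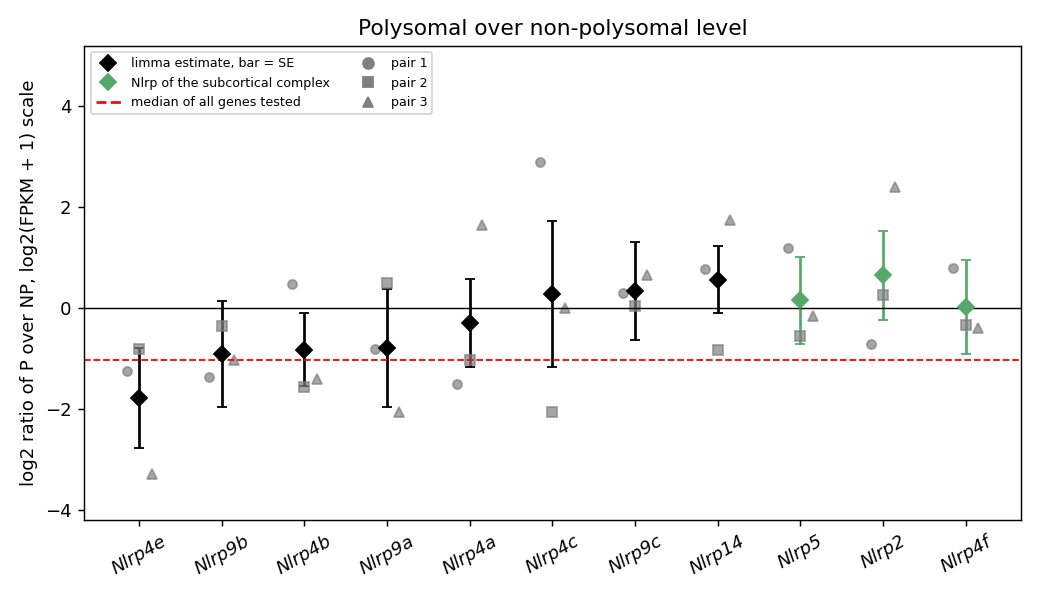
Log2 ratio of P over NP on the log2(FPKM + 1) scale for the 8 members and, in green, 3 *Nlrp* genes of the subcortical maternal complex; diamonds with bars are the limma estimate and its SE, grey shapes are single pairs, and the dashed line is the median of all genes tested (-1.03). The single pairs of one gene lie on both sides of 0 for 5 of the 8 members.

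The members covered a wide range of levels. In NP the order by mean FPKM was *Nlrp14* (360 ± 104, SD, n = 3), *Nlrp4b* (349 ± 37.8), *Nlrp4a* (116 ± 76.6), *Nlrp4e* (85.2 ± 28.9), *Nlrp9b* (31.5 ± 14.1), *Nlrp9a* (28.9 ± 19.97), *Nlrp9c* (28.2 ± 12.3) and last *Nlrp4c*. *Nlrp14* and *Nlrp4b* were not separated in NP, with a mean log2 difference of 0.01 ± 0.34 (SD, n = 3). *Nlrp4b* was above *Nlrp4a* in all 3 NP libraries by 1.83 ± 1.12, and *Nlrp4a* and *Nlrp4e* differed by 0.23 ± 0.87, less than their spread. *Nlrp4e* was above *Nlrp9b* in all 3 NP libraries by 1.44 ± 0.14, the step in this order with the smallest spread. The *Nlrp9* copies differed from each other by less than that difference varied between libraries. In P, *Nlrp14* (613 ± 352) was above *Nlrp4b* (261 ± 251) in 3 of 3 libraries by 1.403 ± 1.21 on the log2 scale. *Nlrp4a* followed (87.4 ± 44.7), with *Nlrp4b* above it in 2 of 3 P libraries and a mean log2 difference of 1.30 ± 2.13. *Nlrp9c* (35.4 ± 13.9) came ahead of *Nlrp4e* (33.7 ± 30.9), *Nlrp9a* (22.1 ± 17.97) and *Nlrp9b* (18.8 ± 15.8), but none of these steps exceeded its spread except that from *Nlrp4e* to *Nlrp9a* (0.73 ± 0.69, in 2 of 3 libraries).

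The summed level of the 8 genes was between 740.3 and 1149 FPKM in NP and between 586 and 1500 FPKM in P. *Nlrp14* and *Nlrp4b* together made up 54.0% to 88.7% of it. *Nlrp14* alone was 32.3% to 39.9% of the sum in NP and 52.0%, 35.5% and 74.0% of it in P1, P2 and P3. The level of *Nlrp14* divided by that of *Nlrp4b* was 1.17, 1.13 and 0.767 in NP and 1.42, 1.91 and 6.89 in P. Every P library had a higher value of this ratio than every NP library. The margin was narrow between NP1 (1.17) and P1 (1.42), and P1 was the library of lowest depth. How many other pairs of genes separate the fractions in this way was not counted. Scaling a library by one factor leaves the ratio as it is, which quantile normalization does not. The ratio was read after the values were seen and has no test. As a share of all FPKM in the table, the 8 genes made up 0.124% to 0.188% in NP and 0.238% to 0.439% in P. Without *Nlrp14* the fractions overlapped, as the other 7 made up 0.113%, 0.122% and 0.0818% in NP1, NP2 and NP3 and 0.211%, 0.154% and 0.0757% in P1, P2 and P3, with P1 and P2 above and P3 below every NP library. The summed FPKM of the table, by which these shares are divided, was itself lower in P.

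**Figure D4:**
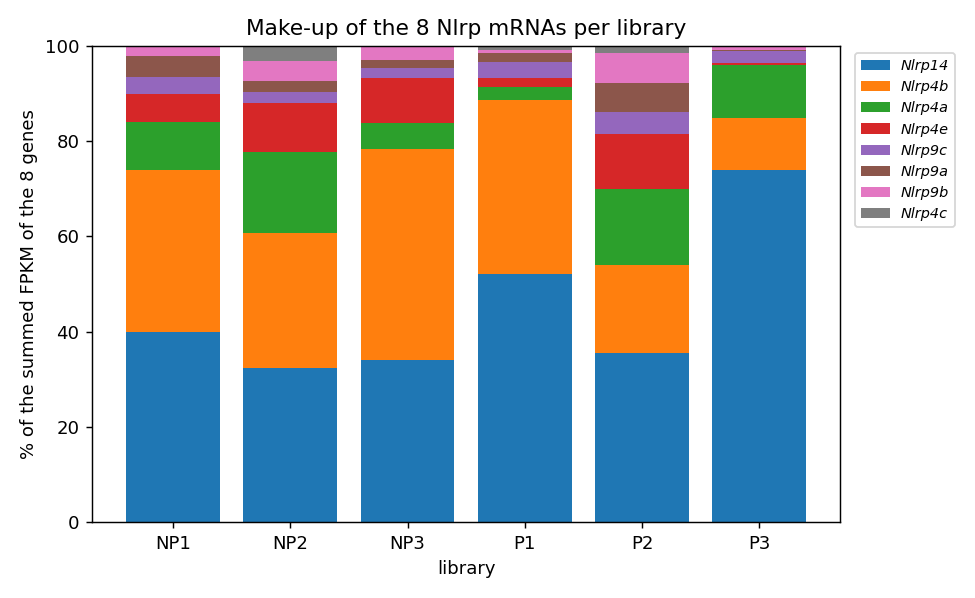
Percent of the summed FPKM of the 8 genes that each gene contributed in every library (stacked bars, each adding to 100). *Nlrp14* takes 52.0% of P1 and 74.0% of P3 but 35.5% of P2; the NP libraries hold 32.3% to 39.9%.

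Among P libraries, P2 held the lowest level of *Nlrp14*, *Nlrp4b* and *Nlrp9c* and the highest of *Nlrp4e*, *Nlrp9a* and *Nlrp9b*. *Nlrp4e* and *Nlrp9b* were also highest in NP2 among the NP libraries. P2 had the lowest FPKM sum of the table (246182), and P1, with the lowest depth, gave fewer than 20 reads for 4 members. Over all libraries 8 of 48 member values stood for fewer than 20 reads, 6 of them in P.

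The gene whose pattern over the 6 libraries was most like that of *Nlrp14* was *Necap2*, a gene of clathrin-mediated traffic, with a Pearson r of 0.998 on log2(FPKM + 1) among 4835 genes with a mean above 10 FPKM. It ran from 0.283 FPKM in P2 to 60.3 FPKM in P3. Next came *Plac1l* (0.988), *Plxnb2* (0.972), *Tle6* (0.966) and *Gm15774* (0.962). *Tle6*, which encodes a core protein of the subcortical maternal complex, was at 328, 351 and 191 FPKM in NP and at 518, 130 and 569 FPKM in P. In all of these P2 was the lowest of the P libraries, and the 6 points share 3 gradients and their depths.

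The *Nlrp* genes of the subcortical maternal complex, *Nlrp5*, *Nlrp2* and *Nlrp4f*, lay in the same range as the members. *Nlrp5* was at 44.9, 62.8 and 89.3 FPKM in NP and at 103, 42.3 and 80.0 FPKM in P. *Nlrp2* had a log2 ratio of 0.65 (SE 0.88) and *Nlrp4f* of 0.02 (SE 0.93), and limma called 0 of these 3. Of the other complex genes *Ooep*, *Padi6* and *Tle6* were not called, whereas *Zbed3*, a partner of the complex, was lower in P in 3 of 3 pairs (log2 ratio -2.03, SE 0.56, limma adjusted p = 0.0922). This call held in 2 of 18 alternatives, with ratios between -2.47 and -1.03 and adjusted p between 0.0352 and 0.701. The difference between *Zbed3* and any member was not tested.

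Outside these groups most NOD-like receptor and inflammasome genes were at or near 0. Of the remaining *Nlrp* genes, *Nlrp4g*, an *Nlrp4* copy annotated as a transcribed pseudogene, was at 71.0 ± 29.3 FPKM in NP and 52.1 ± 39.2 FPKM in P (SD, n = 3; limma log2 ratio -0.63, adjusted p = 0.729), in the range of *Nlrp4e*. *Nlrp3*, the inflammasome sensor of immune cells, was at 0 in every library, as was the pseudogene *Nlrp4d*. *Nlrp12* was above 0 in NP2 and NP3 (1.97 and 0.933 FPKM), and *Nlrp10* reached 0.0370 FPKM in NP2. *Nlrp6* was listed at 30.6 FPKM in P3 and at 0 in the other 5 libraries. Of 9 inflammasome genes, 6 were at 0 in every library, among them the adaptor *Pycard*, the protease *Casp1* and the pore-forming *Gsdmd*. *Nek7* and *Casp8* reached at most 10.9 and 13.7 FPKM, and *Il18* 0.310 FPKM. Among other receptors, *Nod2* was above 0 in all libraries, between 0.773 and 46.4 FPKM in NP and between 16.1 and 112 FPKM in P, *Naip1* reached 15.7 FPKM, *Nlrc4* 3.18 FPKM and *Nod1* 0.413 FPKM, and 7 of 11 were at 0 throughout.

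Genes whose products have been linked to NLRP4, NLRP9 or NLRP14 were also read. *Uhrf1* was at 206, 235 and 64.3 FPKM in NP and at 149, 107 and 117 FPKM in P (log2 ratio -0.25, SE 0.78, limma adjusted p = 0.886). The autophagy gene *Becn1*, the helicase *Dhx9* and the interferon-pathway kinase *Tbk1* had mean levels of 2.29, 1.44 and 1.02 FPKM over the 6 libraries, below all members. None of the 4 tested partners was called.

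All 8 members lie on chromosome 7. *Nlrp9c* (chr7:26322473-26403700), *Nlrp4a* (chr7:26435113-26476142) and *Nlrp9a* (chr7:26535023-26575615) are next to each other, with gaps of 31.4 and 58.9 kb, and *Nlrp9c* is on the reverse strand while the others are on the forward strand. *Nlrp4e* (chr7:23301275-23362270) lies 23.6 kb from *Nlrp5*. *Nlrp4c* (chr7:6045161-6105149), *Nlrp4b* (chr7:10687793-10730168), *Nlrp9b* (chr7:20008023-20073306) and *Nlrp14* (chr7:107166990-107198102) have no *Nlrp* gene among the 3 nearest listed genes on each side. Other annotated transcripts overlap *Nlrp4b* (the sense-intronic Gm45379), *Nlrp4e* (the pseudogene Krt8-ps) and *Nlrp9b* (the pseudogene Gm18877 and, on the opposite strand, the ribosomal RNA n-R5s152), and the strand setting of the counting is unknown. The genes around the members were low. Of 35 neighbours that are not *Nlrp* genes, 20 were at 0 in all libraries (44.1% in the whole table), 12 of the 35 are vomeronasal *Vmn1r* genes, and the highest, *Zfp787* beside *Nlrp4c*, had a mean of 5.39 FPKM.

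**Figure D5:**
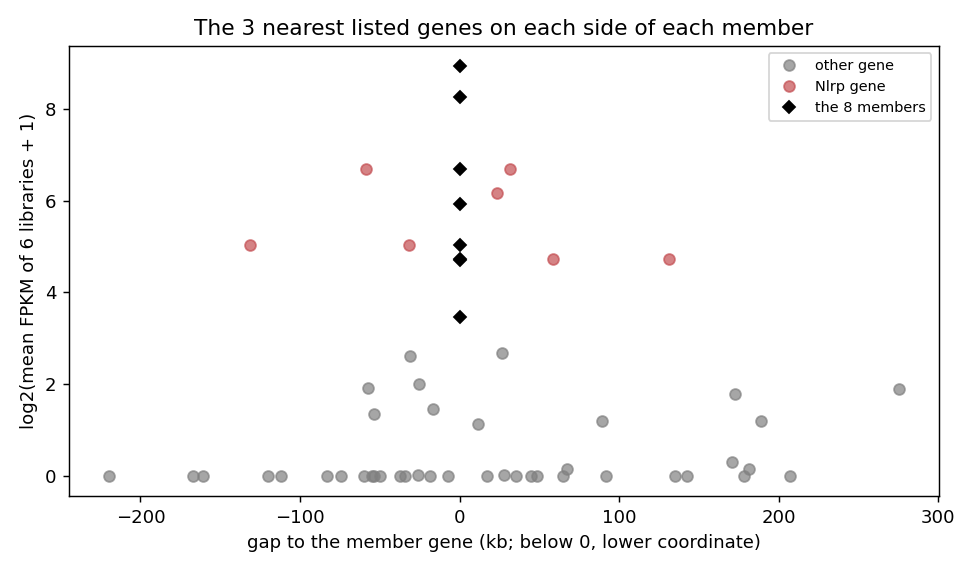
Mean level over 6 libraries, as log2(mean FPKM + 1), of the 3 listed genes nearest to each member on each side against their gap to it in kb; a gene near several members appears once for each. The members stand at a gap of 0, and all grey points (genes that are not *Nlrp*) lie at or below the 5.39 FPKM of *Zfp787*.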

How the data were processed

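After ribosomal RNA removal and whole transcriptome amplification, reads were trimmed (Trim Galore 0.4.1) and mapped to GRCm38 (HISAT2 2.0.5), per the labels, and the authors deposited FPKM calculated in Seqmonk for each gene. No source used here gives the annotation release, the strand setting or how reads matching several genes were handled. Of 25965 rows, 58 symbols were duplicated and the row with the highest mean was kept. The test of P (3 libraries) against NP (3 libraries) used limma 3.58.1 (R 4.3.3, with a trend) on log2(FPKM + 1), restricted to genes whose mean exceeded 1 FPKM in P or NP, two-sided, Benjamini-Hochberg adjusted over 10578 genes at a threshold of 0.1. Fold changes are on that scale and understate changes of low genes. Read numbers are estimates from recovered depths and GENCODE M21 exon lengths, and what 1 step counts is not settled. Pairing was checked by the correlation, across genes, of deviations from the group means, which was 0.0634, 0.0991 and 0.116 for same-numbered libraries and -0.0886 to 0.0208 for others. The authors' mean columns were not used. Named genes are the 8 members, the 4 highest genes of each list of related genes and any called there, and the 5 genes most like the highest member. Outside this rule, the cell type markers, the genes named as at 0 throughout and the neighbour *Zfp787* were picked after their values were seen. Members and lists were chosen with earlier results of these data known. The scripts were tested on simulated data. With this spread between libraries, a gene that was not called may still differ.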

Additional observations from a re-analysis of the deposited data

How the results depend on the processing

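No member passed the threshold under any of 18 alternatives, 2 of them (leaving out both libraries numbered 1, or both numbered 3) added after seeing the data. Of the 18, 5 leave the ratios as they are by construction; under the other 13, 82 of 104 member ratios kept their sign and 22 did not. Rescaled by median of ratios, to equal quantiles or to a common sum, *Nlrp4a* became 0.69, 0.65 and 0.63, *Nlrp4b* 0.17, 0.16 and 0.10 and *Nlrp9a* 0.11, 0.50 and 0.082, and *Nlrp9b* became 0.037 and 0.26 under the first pair of these. *Nlrp4c* became -0.0061 with a pseudocount of 5. Leaving out libraries gave -1.27 to 0.30 for *Nlrp4a*, -1.03 to 1.85 for *Nlrp4c*, -1.47 to 0.38 for *Nlrp9a*, -0.029 to 1.22 for *Nlrp14*, -1.58 to -0.41 for *Nlrp4b*, -2.53 to -0.91 for *Nlrp4e*, -1.53 to -0.55 for *Nlrp9b* and 0.03 to 0.65 for *Nlrp9c*. The members' median of -0.55 became 0.43, 0.58 and 0.36 under the 3 rescalings and lay between -0.89 (without NP replicate 3) and -0.15 (without P replicate 3) when libraries were left out, and 4 to 8 members stood above the median of all genes. The 192 genes called became 69 with a pseudocount of 0.1, 0 without a filter on low values (1759 at an unadjusted p under 0.05), 3, 4 and 7 under the rescalings, 15 without a trend and 65 at an adjusted p of 0.05, and between 0 and 55 when libraries were left out (55 without P replicate 3, 0 without any other library). The main fit leaves the pairs out. With the number as a replicate block, limma called 668 genes and no member (lowest adjusted p 0.287, *Nlrp4e*). Deviations of same-numbered libraries correlated weakly, at 0.0634 to 0.116, but above those of all other pairs of libraries (at most 0.0208). The cause of these shifts was not tested. By median FPKM in place of the mean, *Nlrp9b* and *Nlrp9c* changed places in NP and *Nlrp9a* and *Nlrp9c* in P, and 4 of the 5 genes most like *Nlrp14* remained with a mean above 1 FPKM. Depth limits the P values most, where 11 of 24 member values stand for fewer than 100 reads.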
